A study of Mus musculus with 12 samples.

Results

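The receptors for IL-33, IL-18 and TSLP were followed through basophil differentiation by their 6 chains, which were taken by gene symbol from the 32227 genes of the count table. They were Il1rl1 and Il1rap for IL-33, Il18r1 and Il18rap for IL-18, and Crlf2 and Il7r for TSLP. All 6 were listed and all 6 passed the filter on low counts, beside 15083 genes tested in all. Bulk RNA sequencing had been done on basophil-lineage cells sorted from wild-type C57BL/6J mice, with 3 libraries in each of 4 groups. The groups were CD34+ CLEC12A-high basophil progenitors (BaPs) of the bone marrow, CD34- CLEC12A-high CD9-low pre-basophils of the bone marrow (named immature basophils in the sample titles), and CLEC12A-low CD9-high mature basophils of the bone marrow (BM mature) and of the spleen (spleen mature). Cells of all 4 groups were CD200R3+ and cKit-, none was treated, and the age of the mice was not stated. Since a library was made from the pooled cells of several animals, replicates differ as pools do. None of the 6 chains is among the markers that the labels give for these gates. An antibody to the Il7r protein is among the flow cytometry reagents of the study, and its use in these sorts was not stated. The comparisons asked how the sensing of these cytokines, read at the level of receptor mRNA, was laid out from progenitor to mature cell and from marrow to spleen.

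IL-33, IL-18 and TSLP are released by barrier and other tissue cells upon damage or infection and activate basophils without IgE. Il1rl1 encodes ST2, which binds IL-33, and Il1rap encodes the accessory protein that joins it. Il18r1 binds IL-18 and Il18rap is its accessory chain. These 4 proteins belong to the IL-1 receptor family, whose cytoplasmic TIR domains recruit MYD88 and IRAK kinases and lead to NF-kB and MAP kinase activation. Crlf2 encodes the chain that binds TSLP, and Il7r encodes the IL-7 receptor alpha chain, which pairs with CRLF2 for TSLP or with the common gamma chain for IL-7. These chains signal through JAK kinases and STAT5. In type 2 immunity, basophils answer such cytokines with IL-4, IL-13, IL-6 and chemokines.

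Il1rl1, Il18r1 and Il18rap lie next to each other on the plus strand of chromosome 1, at chr1:40429570-40465415, chr1:40465552-40500854 and chr1:40515362-40551705 (GRCm38, GENCODE M21). Il1rap lies at chr16:26581704-26730117 on the plus strand, Crlf2 at chr5:109554709-109558993 on the minus strand and Il7r at chr15:9505788-9530176 on the minus strand. Exons of Il1rap overlap those of Gm20319 on the other strand. Whether the counts used the strand was not stated, so reads from the overlap may not have been told apart. GENCODE lists 5 Il1rl1 transcripts, and the count per gene pools those for membrane-bound ST2 with those for the secreted form, which takes up IL-33 without signalling. One window for each receptor overlapped no annotated exon, and these windows, the 250 bases before a RefSeq start of Il1rl1, Il18rap and Crlf2 (GRCm38.p6), are shown because the chains behind them moved in 3 different ways across the groups. Capitals mark GATA and its reverse complement TATC, the letters bound by GATA2, a factor that basophils need.

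Il1rl1, chr1:40429320-40429569, plus strand: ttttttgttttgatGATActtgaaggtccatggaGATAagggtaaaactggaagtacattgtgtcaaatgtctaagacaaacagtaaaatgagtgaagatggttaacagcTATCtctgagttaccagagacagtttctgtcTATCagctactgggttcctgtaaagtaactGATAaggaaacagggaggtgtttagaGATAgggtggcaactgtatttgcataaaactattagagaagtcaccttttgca

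Il18rap, chr1:40515112-40515361, plus strand: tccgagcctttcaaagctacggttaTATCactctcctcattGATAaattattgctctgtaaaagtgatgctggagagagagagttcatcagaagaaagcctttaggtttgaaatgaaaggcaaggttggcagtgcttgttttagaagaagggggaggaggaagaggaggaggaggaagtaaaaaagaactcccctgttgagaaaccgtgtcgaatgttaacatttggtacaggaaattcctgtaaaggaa

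Crlf2, chr5:109558994-109559243, minus strand: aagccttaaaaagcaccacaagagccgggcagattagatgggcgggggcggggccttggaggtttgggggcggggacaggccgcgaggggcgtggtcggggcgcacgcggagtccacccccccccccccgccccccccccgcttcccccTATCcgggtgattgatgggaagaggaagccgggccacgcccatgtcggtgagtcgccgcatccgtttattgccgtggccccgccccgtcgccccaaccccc

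The Il1rl1 window, which is the more upstream of the 2 RefSeq starts of this gene, held 6 GATA matches, the Il18rap window 2 and the Crlf2 window 1. Of 32851 windows of the same length over all genes, 53.6% held at least 1 match on either strand, 24.2% held at least 2 and 0.338% held at least 6. The other Il1rl1 start had 2 matches, the 3 Il18r1 starts had 0, 0 and 1, and those of Il1rap and Il7r had 0. A STAT motif, TTCNNNGAA, stood 1 time before Il7r and 2 times before the most downstream Il18r1 start, and 7.02% of all windows held it. Both of these windows overlapped annotated exons, as did every other window of the 6 chains that is not shown. The RUNX motif TGTGGT or its reverse complement stood 1 time before Crlf2 and 1 time before the downstream Il1rl1 start, against 14% of all windows. These matches describe letters, and no binding was measured.

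Library totals ran from 3596108 to 8151030 counts. Levels are given as CPM, counts scaled to a common library total after a TMM (trimmed mean of M values) correction, and a count of 0 would allow up to 0.290 to 0.955 CPM, depending on the library. All 8 basophil markers examined, Cd200r3, Fcer1a and Gata2 among them, had counts in every group. One library stood apart. BaP replicate 3 had a basophil marker sum of 24998 CPM, against 67654 and 62636 in BaP replicates 1 and 2, and carried markers of other cells. The basophil sum also differed by stage, at 10688 to 13368 CPM in BM mature and 5339 to 6012 in spleen mature. Most of this sum in the immature cells was Prss34, at 42584 to 49584 CPM in the pre-basophils and 3798 to 5708 in BM mature. Mcpt8, Fcer1a, Ms4a2, Cpa3 and Il3ra were also lower in BM mature than in the pre-basophils. Cd200r3 (906 to 982, then 1088 to 1154 CPM) and Gata2 (1868 to 1942, then 2006 to 2455 CPM) were higher in BM mature. In BaP replicate 3, the 12 T cell markers summed to 968 CPM against 246 and 203 in the other BaPs. The 6 NK cell markers summed to 947 against 431 and 328, of which Nkg7 alone made up 485 against 428 and 326. The 11 B cell markers summed to 209 against 41.1 and 42.9, and the 6 erythroid markers to 2400 against 8.84 and 11.3. Results for BaPs are therefore followed by their value without BaP replicate 3. Across the stages, 10 immediate-early and stress genes (such as Fos, Jun and Hspa1a) summed to 17507 to 25107 CPM in the BaPs and 35721 to 39651 in the pre-basophils. They summed to 75124 to 91615 in BM mature and 93046 to 110517 in spleen mature. In the same order of groups, 8 neutrophil markers summed to 1895 to 2295, 908 to 2132, 80.7 to 115 and 56.3 to 64.4 CPM. Mpo made up most of that sum in BaP replicates 1 and 2, at 1792 and 1402 CPM, and stood at 562 in replicate 3. S100a8 measured 14.6, 138 and 370 CPM in BaP replicates 1 to 3 and 45.3, 148 and 333 in the pre-basophils. S100a9, Ltf, Ngp, Mmp8 and Camp also rose with replicate number in both groups, and Elane did not. In spleen mature, B cell markers summed to 213 to 357 CPM, against 46.8 to 59.5 in BM mature. The part of these shifts in the receptor results was not tested. In bulk samples, fewer cells of a type and less RNA per cell cannot be told apart.

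Both IL-18 receptor chains rose at each step from BaPs to mature basophils of the marrow, and Il1rap and Il7r rose between pre-basophils and mature basophils. Il1rl1 was called lower in the BaPs than in each other group, though not under every alternative tried. Crlf2 was called only as lower in spleen mature than in the pre-basophils. Among the 4 groups, all 6 chains differed at an adjusted p under 0.05 (edgeR's quasi-likelihood test, Benjamini-Hochberg over 15083 genes), as did 57.8% of all genes tested. In each comparison below, called means past this threshold.

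**Figure D1:**
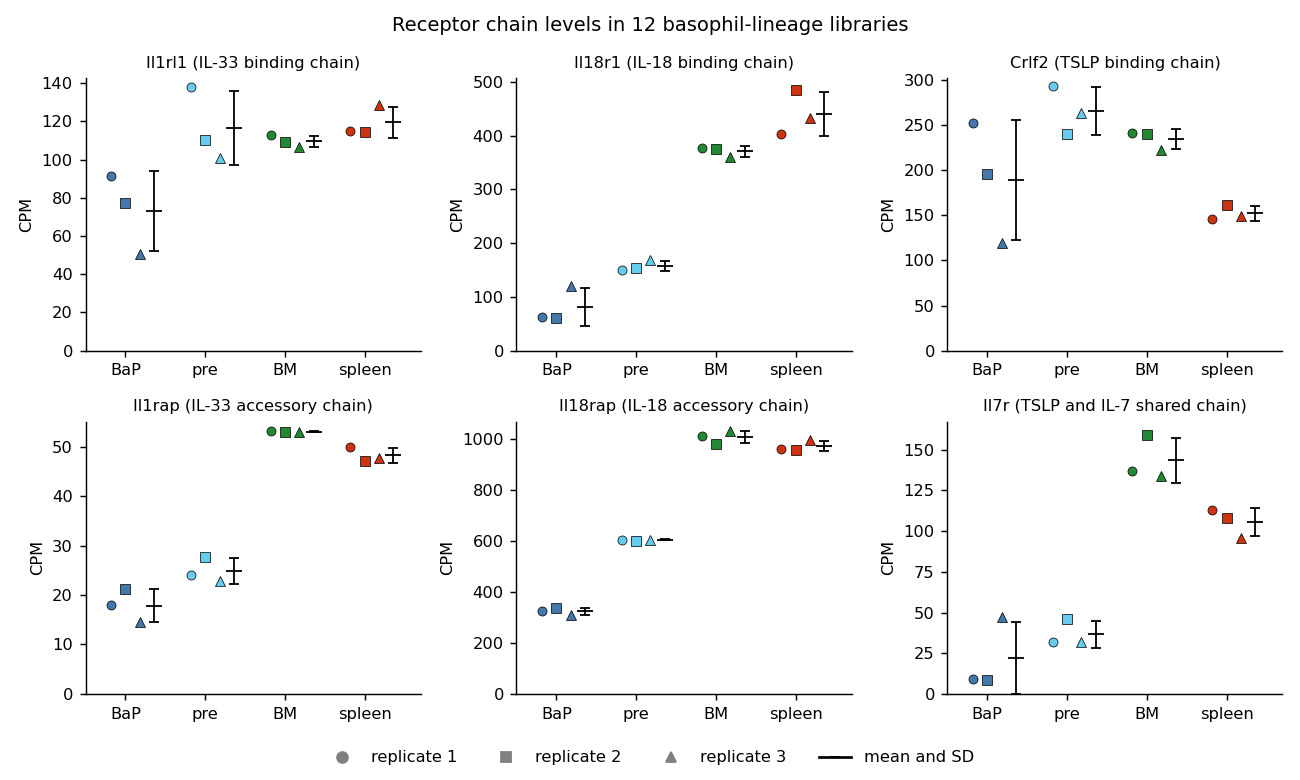
Level of each receptor chain in CPM (vertical axis, from 0) by group; pre, BM and spleen stand for pre-basophil, BM mature and spleen mature. Each symbol is 1 library, and the black bar gives the mean and SD of 3; Il18rap separated BaPs, pre-basophils and mature basophils without overlap, and the BaP libraries of Il18r1, Crlf2 and Il7r were spread by replicate 3.

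For IL-33, the ligand-binding chain and its partner followed different courses. Il1rl1 measured 91.5, 77.1 and 50.5 CPM in BaP replicates 1 to 3, 138, 110 and 100.9 CPM in the pre-basophils, 113, 109 and 107 CPM in BM mature and 115, 115 and 129 CPM in spleen mature. The BaP libraries were the 3 lowest of the 12, pre-basophils overlapped both mature groups, and spleen mature lay just above BM mature. From BaPs to pre-basophils the mean rose 1.60-fold (log2 fold change of BaP relative to pre-basophil -0.68, SE 0.18, adjusted p = 0.0394), and without BaP replicate 3 the value was -0.45 (adjusted p = 0.0355). This call was lost when any of 10 other single libraries was left out, with adjusted p up to 0.166, and it was kept only without BaP replicate 1 or 3. Against BM mature the BaP value was -0.59 (SE 0.18, adjusted p = 0.0166) and against spleen mature -0.72 (SE 0.18, adjusted p = 0.00414). Without BaP replicate 3 they were -0.36 and -0.49, both called. Both calls were kept in all 12 runs without a single library. Of the other alternatives, 9 of 12 kept the first call and 10 of 11 the second (adjusted p up to 0.507 and 0.206). Between pre-basophils and BM mature the difference was 0.084 with a 95% interval from -0.30 to 0.47 (adjusted p = 0.770), and between spleen and BM mature it was 0.13 with an interval from -0.26 to 0.51.

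Il1rap, the accessory chain, measured 17.9, 21.2 and 14.5 CPM in the BaPs and 24.04, 27.8 and 22.9 CPM in the pre-basophils. In BM mature it measured 53.1, 53.1 and 53.0 CPM, and in spleen mature 49.9, 47.2 and 47.7 CPM. The 6 mature libraries lay above all 6 immature ones. BM mature exceeded pre-basophils 2.14-fold (log2 fold change of pre-basophil relative to BM mature -1.09, SE 0.14, adjusted p = 8.48e-05), and this call was kept without each of the 12 libraries in turn. BaPs were lower than pre-basophils in every library, but the difference missed the threshold (-0.49, interval -0.81 to -0.18, adjusted p = 0.0582). With the replicate number as a block over all 12 libraries it passed (adjusted p = 0.0433), over the 9 bone marrow libraries it did not (adjusted p = 0.0682), and without BaP replicate 3 it was -0.33 (adjusted p = 0.162). Spleen and BM mature did not overlap but differed by -0.14 with an interval from -0.42 to 0.15 (adjusted p = 0.570).

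For IL-18, both chains rose together. Il18rap had the highest CPM of the 6 chains. It measured 324, 335 and 311 CPM in the BaPs, 605, 602 and 605 CPM in the pre-basophils, 1012, 981 and 1030 CPM in BM mature and 962, 959 and 996 CPM in spleen mature. BaPs, pre-basophils and mature basophils formed 3 separate levels, with BaP replicate 3 close to its fellows. Pre-basophils exceeded BaPs 1.87-fold (log2 fold change of BaP -0.90, SE 0.092, adjusted p = 0.000144; without BaP replicate 3, -0.86, adjusted p = 1.27e-05). BM mature exceeded pre-basophils 1.67-fold (log2 fold change of pre-basophil -0.74, SE 0.091, adjusted p = 6.37e-05). Spleen and BM mature overlapped, at -0.051 with an interval from -0.25 to 0.14.

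Il18r1, the chain that binds IL-18, measured 61.9, 60.8 and 121 CPM in the BaPs and 150, 155 and 169 CPM in the pre-basophils. In mature cells it measured 377, 374 and 360 CPM in the marrow and 403, 484 and 433 CPM in the spleen. No 2 groups overlapped, and BaP replicate 3 lay nearly midway between the other BaPs and the pre-basophils. Pre-basophils exceeded BaPs 1.92-fold (log2 fold change of BaP -0.94, SE 0.21, adjusted p = 0.0173). Without BaP replicate 3 the value was -1.35 (adjusted p = 9.33e-07), and the call was lost without pre-basophil replicate 2 or 3 (adjusted p = 0.0554 and 0.0728). BM mature exceeded pre-basophils 2.35-fold (log2 fold change of pre-basophil -1.23, SE 0.21, adjusted p = 0.000668), and BaPs were lower than spleen mature by -2.42 (SE 0.22, adjusted p = 8.36e-07; without BaP replicate 3, -2.83). The spleen libraries were all above the BM mature ones, but the difference of 0.25 had an interval from -0.19 to 0.68 (adjusted p = 0.483).

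For TSLP, the 2 chains moved unlike each other. Crlf2, the TSLP-binding chain, measured 252, 196 and 119 CPM in the BaPs, 293, 241 and 263 CPM in the pre-basophils, 241, 240 and 222 CPM in BM mature and 146, 162 and 150 CPM in spleen mature. BaPs spanned nearly the whole range of the other groups, while spleen mature lay below every pre-basophil and BM mature library. Only the difference between pre-basophils and spleen mature was called (0.80, SE 0.20, adjusted p = 0.00464). Spleen mature was lower than BM mature by -0.62, with an interval from -1.04 to -0.20 and an adjusted p of 0.0688. The same difference passed in DESeq2 (adjusted p = 0.0391), in a fit of those 2 groups alone (0.000602) and without BaP replicate 3 (0.000733). BaPs differed from spleen mature by 0.31 (adjusted p = 0.200), or by 0.57 without BaP replicate 3 (adjusted p = 0.000505).

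Il7r measured 9.32, 8.72 and 47.4 CPM in the BaPs, or 39, 37 and 490 counts. It measured 31.6, 46.3 and 32.1 CPM in the pre-basophils, 137, 159 and 134 CPM in BM mature and 113, 108 and 96.0 CPM in spleen mature. All 6 mature libraries were above all immature ones, and BaP replicate 3 was above every pre-basophil library while the other BaPs were below them. BM mature exceeded pre-basophils 3.92-fold (log2 fold change of pre-basophil -1.97, SE 0.45, adjusted p = 0.00479), and the call was kept without each library in turn. BaPs and pre-basophils differed by -0.65 with an interval from -1.62 to 0.32 (adjusted p = 0.434), and without BaP replicate 3 by -2.0035 (adjusted p = 5.08e-06). Spleen mature lay below BM mature in every library (-0.44, interval -1.34 to 0.46, adjusted p = 0.554; without BaP replicate 3, adjusted p = 0.0189).

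Il7r and Il18r1 were highest of the BaPs in replicate 3, where markers of T and NK cells were high as well. There Lck, a T cell kinase, stood at 118 CPM against 3.58 and 4.01 in the other BaPs, Cd3g at 45.2 against 0.478 and 0.236, and Ncr1, an NK cell receptor, at 94.3 against 0 and 0.471. None of the 12 T cell and 6 NK cell markers was at 0 in that library. In the other 11 libraries the T cell sum ran from 65.5 to 267 CPM, of which Thy1 made up most in the pre-basophils (232 to 244 CPM). Thy1 fell to 21.8 to 71.1 CPM in mature basophils, and the T cell sum with it. The other 11 T cell markers ran the other way, as Il7r and Il18r1 did, with sums of 19.7 to 22.6 CPM in the pre-basophils and 27.8 to 56.3 CPM in the 6 mature libraries. In BaP replicate 3 they summed to 543 CPM. Il18rap, Il1rap, Crlf2 and Il1rl1 were lowest of the BaPs in replicate 3. The part of other cells in the receptor values, in BaP replicate 3 and in the mature groups, was not tested.

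**Figure D2:**
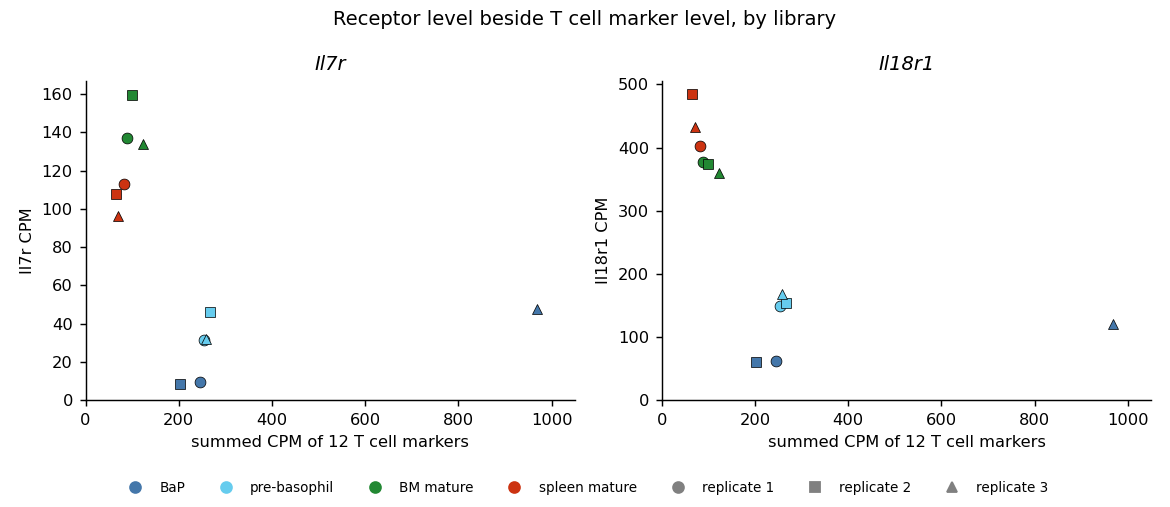
Il7r (left) and Il18r1 (right) in CPM against the summed CPM of 12 T cell markers, 1 symbol per library. BaP replicate 3 lies alone at 968 CPM of T cell markers, and the 6 mature libraries lie at 65.5 to 123 CPM, below the pre-basophils through Thy1 alone; the other 11 markers sum to 27.8 to 56.3 CPM in mature cells and 19.7 to 22.6 CPM in the pre-basophils.

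Read as a group, 4 of 6 chains (Il1rap, Il18r1, Il18rap and Il7r) were called between pre-basophils and BM mature, where 27.3% of all genes tested were called. All 4 were lower in the pre-basophils, against 11.0% of all genes called in that direction. The median log2 fold change was -0.92 for the 6 chains and -0.0044 for all genes tested. Between BaPs and pre-basophils, 3 of 6 chains (Il1rl1, Il18r1 and Il18rap) were called, against 7.08% of all genes, and all 3 were lower in the BaPs, against 4.29%. The medians were -0.66 and 0.022. With BaP replicate 3 left out, Il7r joined them and 4 were called, while the share of all genes called rose to 12.1%. The chains, and the gene lists below, were chosen with earlier results of these data known, so these counts are descriptions.

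Between spleen and BM mature, edgeR's quasi-likelihood test called 0 of 6 chains, against 7.83% of all genes. At an unadjusted p under 0.05 it found 1, Crlf2, DESeq2 called 1 and limma-voom 0, while 5 of 6 chains, and 33.7% of all genes tested, did not overlap between the groups. The medians were -0.094 and 0.0052. The wider steps gave 5 of 6 chains each. Against BM mature, BaPs had 5 lower (45.0% of all genes called; without BaP replicate 3, the count was again 5 and the share 50.3%). Against spleen mature, pre-basophils had 4 lower and Crlf2 higher (45.7%), and BaPs had 5 lower (54.5%). Without BaP replicate 3 the last comparison called all 6 chains, 5 lower and Crlf2 higher in the BaPs, and 60.4% of all genes. These comparisons share their libraries and are not independent of each other.

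**Figure D3:**
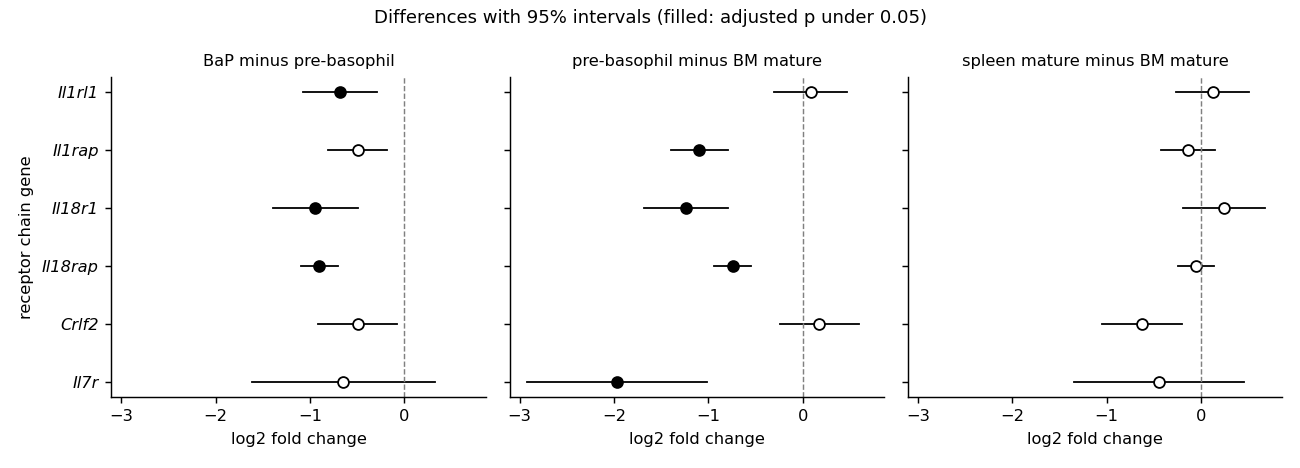
Log2 fold change (horizontal axis) of each chain in the 3 steps, with its 95% interval from the edgeR fit. Filled symbols passed an adjusted p of 0.05; filled symbols number 3 from BaP to pre-basophil, 4 from pre-basophil to BM mature and 0 between spleen and BM mature.

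Because both chains of a receptor are needed for signalling, their ratio within a library was also followed, which does not depend on scaling between libraries. It was tested by an exact permutation test of the F statistic over the 4 groups (369600 assignments, one-sided, adjusted over 3 ratios). Il1rl1 counts exceeded Il1rap counts by 5.08, 3.62 and 3.47-fold in the BaPs and 5.72, 3.95 and 4.40-fold in the pre-basophils. In BM mature the ratio was 2.12, 2.06 and 2.01, and in spleen mature 2.30, 2.43 and 2.70. All immature libraries lay above all mature ones (adjusted exact permutation p = 0.00448; without BaP replicate 3, 0.00273).

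Il18r1 counts were below Il18rap counts throughout. The ratio was 0.191, 0.182 and 0.390 in the BaPs, 0.247, 0.257 and 0.279 in the pre-basophils, 0.373, 0.382 and 0.349 in BM mature and 0.419, 0.505 and 0.435 in spleen mature. It thus rose towards the spleen, BaP replicate 3 excepted (adjusted exact permutation p = 0.0407; without that library 0.000195). The call was lost without each of the other 11 libraries in turn (adjusted exact permutation p from 0.0547 to 0.0912). The Crlf2 to Il7r ratio was 26.7, 22.1 and 2.52 in the BaPs and 9.24, 5.19 and 8.18 in the pre-basophils. It was 1.76, 1.51 and 1.66 in BM mature and 1.29, 1.502 and 1.56 in spleen mature. The mature groups overlapped, and the immature libraries were above them (adjusted exact permutation p = 0.0390; without BaP replicate 3, 0.000195). This call was kept only without BaP replicate 1 or 3 and lost in the other 10 such runs (adjusted exact permutation p from 0.0547 to 0.0699).

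**Figure D4:**
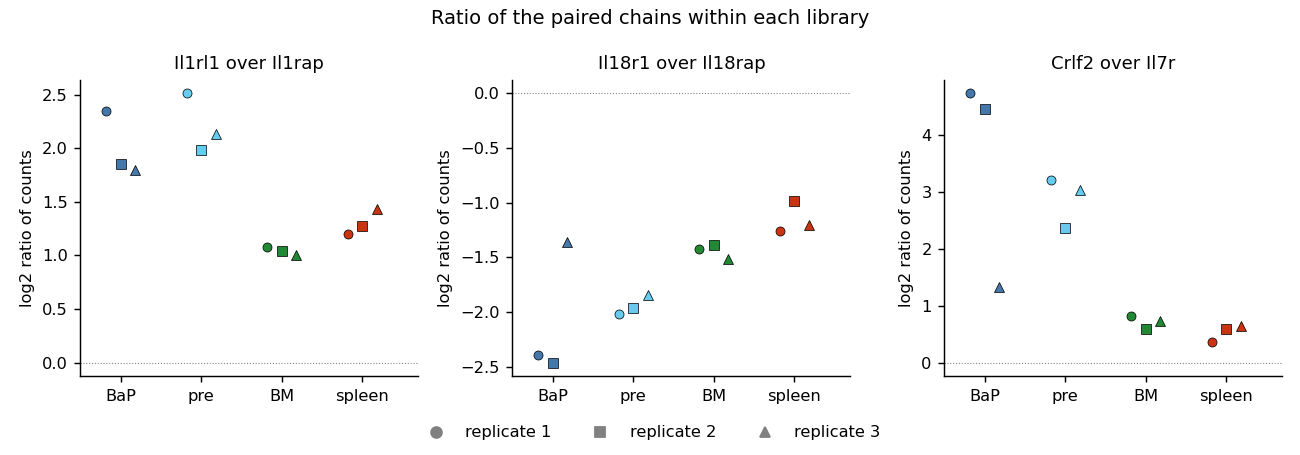
Log2 ratio of the ligand-binding or first-named chain to its partner in each library (vertical axis), by group. Values fall from immature to mature cells for Il1rl1 over Il1rap and Crlf2 over Il7r and climb for Il18r1 over Il18rap, with BaP replicate 3 apart from the other BaPs in the last 2.

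Levels between chains were compared per kilobase of exon (CPM per kb). This takes counts to grow with exon length, which the sources used here do not state for these libraries. The order of chains and the percentiles below rest on that assumption. In pre-basophils the order was Crlf2 at 178 ± 17.6 CPM per kb (SD, n = 3), Il18rap at 89.4 ± 0.286, Il18r1 at 32.7 ± 2.05, Il1rl1 at 16.9 ± 2.81, Il7r at 7.86 ± 1.78 and Il1rap at 2.19 ± 0.224. In spleen mature, Il18rap (144 ± 3.06) stood above Crlf2 (102 ± 5.67) and Il18r1 (91.3 ± 8.57), followed by Il7r (22.6 ± 1.86), Il1rl1 (17.3 ± 1.17) and Il1rap (4.25 ± 0.129). In BM mature the levels of Crlf2 (157 ± 7.19) and Il18rap (149 ± 3.66) differed by about 1 SD. Crlf2, whose annotated exon length is short (1.495 kb), would rank lower by CPM alone. Among tested genes, Il1rap lay between percentiles 27.8 and 57.6 over the 4 groups, and Il18rap between 92.3 and 97.3.

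Il1rl1, Il18r1 and Il18rap close a run of 6 IL-1 receptor family genes on chromosome 1. The first 3 of the run were near the detection floor. Il1r2, which encodes a decoy receptor for IL-1, averaged 2.23 CPM in the BaPs and 0.665 CPM in spleen mature. Il1r1, the signalling IL-1 receptor, reached at most 0.613 CPM, and Il1rl2, the IL-36 receptor, at most 1.04 CPM. Il1rl1 stood at 73.0 CPM or more in every group mean.

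**Figure D5:**
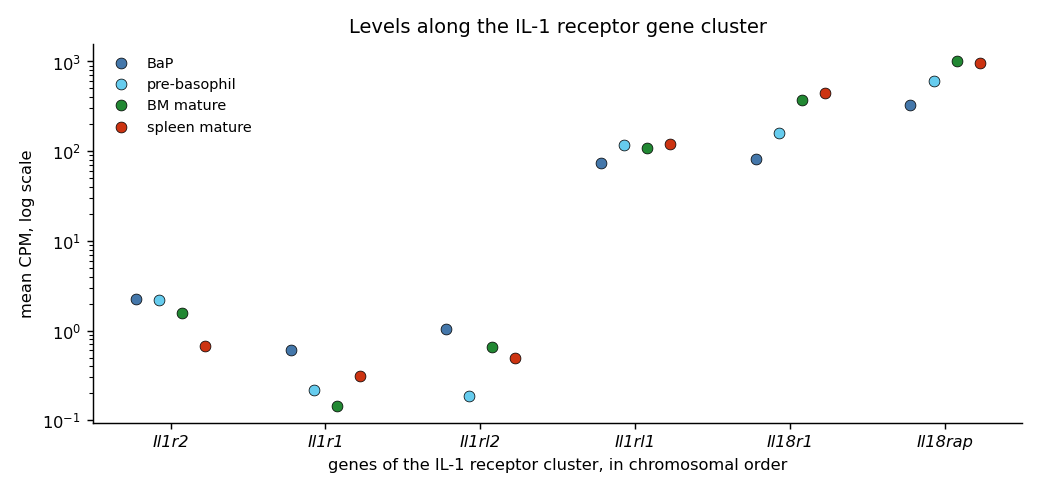
Mean CPM (log scale) of 6 IL-1 receptor family genes in their order along chromosome 1, 1 symbol per group. Il1r2, Il1r1 and Il1rl2 lie near or below 2 CPM, and Il1rl1, Il18r1 and Il18rap at 73.0 to 1008 CPM.

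The cytokines themselves were barely transcribed in these cells. Il33 had 1 count over all 12 libraries, Il7 had 8, Tslp 18 and Il18 26, and none passed the filter. Of 11 other receptor chains and inhibitors of these families, 7 were tested. Il17ra, the IL-17 receptor, was called between pre-basophils and BM mature, at 112 ± 11.1 and 357 ± 282 CPM (log2 fold change -1.67, adjusted p = 0.00900). Without BM mature replicate 2 the value was -0.80 (adjusted p = 0.0488). Il2rg, the common gamma chain that joins Il7r to receive IL-7, had the highest level of that list per kb of exon (80.1 CPM per kb as a mean over the libraries, against 26.6 for Il17ra). In CPM it measured 174 ± 6.41 CPM in the BaPs, 207 ± 8.59 in the pre-basophils, and 212 ± 12.02 and 172 ± 19.99 in BM and spleen mature. Its difference between pre-basophils and BM mature was -0.034 (adjusted p = 0.849), beside the 3.92-fold step of Il7r.

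Downstream of the IL-33 and IL-18 receptors, 25 genes of the MYD88 arm were tested. Between pre-basophils and BM mature, 7 were called, all lower in the pre-basophils, with a median of -0.23. Over all genes the shares were 27.3% called and 11.0% called lower. Mapk14, the p38 alpha kinase, differed by -1.22 (adjusted p = 1.05e-05) and Nfkbiz, an inducible regulator of NF-kB targets such as Il6, by -1.19 (adjusted p = 0.000138). Tab2, an adaptor of the TAK1 kinase, and Nfkbia, the NF-kB inhibitor, differed by -0.70 and -0.61, calls that were lost in 2 and 5 of the 12 runs without a single library. Between BaPs and pre-basophils, 5 were lower in the BaPs and 0 higher (7.08% of all genes called), and without BaP replicate 3 the counts were 7 and 1 (12.1%). They included the adaptor Myd88 (27.7 ± 2.94 and 41.5 ± 5.09 CPM, -0.59, adjusted p = 0.0388) and the kinase Ikbkb (-0.59, adjusted p = 0.00377). Nfkbiz and Nfkbia, which are early response genes as well, differed there by -0.91 and -0.68. Without BaP replicate 3 the values were -0.56 for Myd88, -0.58 for Ikbkb, -0.72 for Nfkbiz and -0.44 for Nfkbia, all called. The Myd88 call was lost in 5 of the 12 runs without a single library and the Nfkbia call in 8, and both were lost in a fit of the 2 groups alone (adjusted p up to 0.178 and 0.167 over all alternatives). Between spleen and BM mature, 3 of the 25 genes were called, against 7.83% of all genes. Tnfaip3, which encodes the NF-kB inhibitor A20, was lower in spleen by -1.61 (adjusted p = 0.00389) and Nfkbia by -0.66. The kinase Irak1 was higher by 0.54. The last 2 calls were lost in 9 and 4 of the 12 runs without a single library.

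Of 17 genes of the JAK-STAT arm, 5 were lower and 1 was higher in the pre-basophils than in BM mature, where 27.3% of all genes were called. Jak2, the kinase that associates with CRLF2, rose at each step, from 98.7 ± 2.08 CPM in the BaPs to 166 ± 29.3 in the pre-basophils, then 303 ± 49.8 in BM mature, and was highest in spleen mature at 540 ± 23.8. Its log2 fold changes were -0.75 for BaP relative to pre-basophil, -0.87 for pre-basophil relative to BM mature and 0.83 for spleen relative to BM mature, all called (adjusted p = 0.00782, 0.000551 and 0.00583), and the first was -0.76 without BaP replicate 3. Socs1 and Socs2, feedback inhibitors induced by STAT5, were lower in the pre-basophils than in BM mature by -1.44 and -1.52, and the Socs2 call was lost in 4 of the 12 runs without a single library. Bcl2, a survival gene, ran the other way, at 108 ± 37.7, 43.9 ± 8.38, 21.8 ± 3.02 and 18.7 ± 2.402 CPM from BaPs to spleen. Its log2 fold change of BaP relative to pre-basophil was 1.30, and 0.99 without BaP replicate 3. Between spleen and BM mature, 3 of the 17 genes were called, against 7.83% of all genes. Jak2 and the phosphatase Ptpn6 (0.71) were higher in spleen, and the STAT5 target Cish was lower (-1.11). The Cish call was lost in 6 of the 12 runs without a single library.

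Of 12 cytokines and chemokines that basophils release, 9 were tested. Between BaPs and pre-basophils, 7 were lower in the BaPs and 0 higher, against 7.08% of all genes called and 4.29% called lower. Without BaP replicate 3 the counts were the same, against 12.1% of all genes. The chemokine Ccl4 rose from 2801 ± 267 to 8257 ± 533 CPM (log2 fold change of BaP -1.56, adjusted p = 3.05e-05) and Ccl3 likewise (-1.496), Il6 differed by -1.25 (adjusted p = 0.0140) and Il13 by -1.96 (adjusted p = 0.0235). Without BaP replicate 3 these 4 values were -1.52, -1.35, -0.97 and -1.69, all called. The Il6 and Il13 calls were lost in 2 and 3 of the 12 runs without a single library. Between pre-basophils and BM mature, 3 of the 9 were called, against 27.3% of all genes. Ccl4 and Ccl3 were lower in the pre-basophils by -1.42 and -1.29 and Tnf was higher by 1.01. Between spleen and BM mature, 4 were lower in spleen, Tnf by -2.08, Il6 by -2.01, Cxcl2 by -1.05 and Ccl3 by -0.58 (7.83% of all genes called). The last 2 calls were lost in 4 and 5 of those runs. Several of these genes are induced by the handling of cells, as are the stress genes whose sums are given above, and the part of such induction was not tested.

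Over the 12 libraries, the levels of Il18r1 and Il18rap had a Pearson r of 0.95 and those of Il18r1 and Il7r also 0.95, while Crlf2 and Il7r had -0.24. These libraries share 4 groups and their scaling, so each value is a description. Among 9643 genes with at least 10 CPM in a group, those most like each chain were Gpc4 for Il1rl1 (r = 0.93), Pyurf for Il1rap (0.99), Lrrfip2 for Il18r1 (0.99), Gm49339 for Il18rap (0.996), CAAA01147332.1 for Crlf2 (0.97) and Ccr2, a chemokine receptor, for Il7r (0.99). Ccr2 averaged 46.6 CPM in the BaPs, 75.7 in the pre-basophils, and 202 and 188 in BM and spleen mature.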

How the data were processed

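Sequencing libraries from pools of sorted cells were prepared by the authors from polyadenylated RNA with amplification of the cDNA. Reads were trimmed with Cutadapt 3.4, mapped with Bowtie2 2.4.2 and deposited as raw counts per gene symbol, without normalization. The paper's methods name GRCm38 and the submitters' processing notes name GRCm39, so coordinates here come from GENCODE M21 (GRCm38) and are not those of the mapping. Use of strand, treatment of reads matching several genes and molecular identifiers are not given in the sources used here, so PCR copies may be counted and floors cover counting error only.

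In edgeR 4.0.16 under R 4.3.3, low genes were removed by filterByExpr, libraries were TMM-scaled, and a quasi-likelihood model with 1 coefficient for each group was fitted over all 12 libraries. The 6 pairs of groups and a test over all 4 groups were adjusted by Benjamini-Hochberg over 15083 genes, and an adjusted p under 0.05 was called. Log2 fold changes, standard errors (SE) and 95% intervals are those of the model, and means are given with the SD of 3 libraries. CPM per kb used the union of annotated exons. Ratios of chains used counts plus 0.5. Correlations used log2 CPM with a prior count of 2. Alternatives used limma 3.58.1 and DESeq2 1.42.0. The fit was tested on simulated counts. Genes named from the pathway lists were the one with the highest CPM per kb and up to 4 with the largest called change per step, at 10 CPM or more in the higher group. The receptor chains and all lists were chosen with earlier results of these data known. Comparison of replicates by chi-square over genes with at least 20 counts gave 4.16 to 35.0 per degree of freedom, so no library was a copy. Same-numbered bone marrow libraries deviated together (9 pairs, r from 0.125 to 0.262), while pairs with spleen did not all do so (lowest r 0.00037), so the number was taken to pair the bone marrow libraries only. Each spleen library also correlated best with a library of its own number, at r up to 0.0899. The main fit and the main ratio test did not use the number, and the replicate block is given as an alternative. The labels do not say what the number stands for.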

Additional observations from a re-analysis of the deposited data

How the results depend on the processing

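Of the log2 fold changes of the 6 chains, 793 kept direction and side of the threshold under the alternatives tried, 18 gained the call, 28 lost it and 7 changed sign. Those 7 were uncalled: with library size alone, Il18rap between spleen and BM mature (0.080), Crlf2 between BaP and BM mature (0.074) and Il1rl1 between pre-basophil and spleen (0.050); under DEGES/TMM (repeated TMM without changed genes, likelihood ratio test) the last (0.095); and among runs leaving out 1 library, Il1rl1 between pre-basophil and BM mature (from -0.066 to 0.18) and spleen mature (from -0.17 to 0.053).

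From BaP to pre-basophil, where 3 chains were called, 1 was called with library size alone, 5 with no filter, 1 in a fit of the 2 groups alone and 0 in a test of at least 1.5-fold change. Over all genes, this step had 1068 calls in the main fit, 1620 with library size alone and 2091 with no filter. It had 237 in the 2 groups alone and 51 at 1.5-fold. Leaving out single libraries gave 1 to 4 chains, with 1 without pre-basophil replicate 2 or 3, where 413 and 381 of all genes were called. Between spleen and BM mature, where 0 were called, 1 (Crlf2) was called under DEGES/TMM, with no filter, in DESeq2 and with the replicate block, 2 (Crlf2 and Il7r) in the 2 groups alone, and 0 to 2 without single libraries, with 1 without BaP replicate 1 and 2 without BaP replicate 3. For spleen against BM mature, the calls over all genes were 1181 in the main fit, 1452 under DEGES/TMM and 1796 with no filter. They were 1273 in DESeq2, 1703 with the replicate block and 2336 in the 2 groups alone. Without BaP replicate 1 they were 1329, and without BaP replicate 3 they were 2630. Between pre-basophil and spleen, 2 of 5 chains stayed past the threshold at 1.5-fold.

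The difference of spleen minus BaP in log2 ratio ran, without single libraries, from -0.79 to -0.52 for Il1rl1 to Il1rap, from 0.73 to 1.28 for Il18r1 to Il18rap and from -4.07 to -2.37 for Crlf2 to Il7r. The last 2 ratio calls were lost in 11 and 10 of those 12 runs (adjusted exact permutation p up to 0.0912 and 0.0699). Without BaP replicate 3 both were kept, each at an adjusted exact permutation p of 0.000195. The cause of the losses was not tested. The replicate block kept all 3 (adjusted exact permutation p = 0.00521, 0.0486 and 0.0486). Beside Il1rap between BaP and pre-basophil and Crlf2 between spleen and BM mature, the block changed no call of a chain, and each of the 12 libraries correlated best with its own number.

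Without TMM scaling, the median log2 fold change over all genes shifted to 0.22 for pre-basophil relative to BM mature, 0.23 for BaP relative to pre-basophil and 0.14 for spleen relative to BM mature. The share of calls that were higher in the first-named group went from 59.8% to 82.5%, 39.4% to 79.6% and 40.4% to 60.6%. The counts for pathway lists moved by over 1.5 times in 90 values and not in 478. With 3 libraries a group, and Il7r at 37 to 39 counts in BaP replicates 1 and 2, small differences in BaPs could not be resolved.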
